A study of Ovis aries with 24 samples.

Results

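The genes described here were nearly without reads in the rumen epithelium of lambs at 5 days of age (d5) and carried reads in each lamb at 10 days (d10). They were selected on measured values. A gene was taken where all 3 rumen libraries of d5 were under 1 CPM (counts of the gene per 1000000 counts of its library) and all 3 of d10 were at 2 CPM or more. Of the 27054 genes in the table, 72 (0.266%) met this rule. The rule set 7 identifiers aside by name, 3 of which were among the 72, so that 69 genes of 27054 are members. The opposite rule, with d10 under 1 CPM and d5 at 2 CPM or more, was met by 12 genes. Because the rumen values chose the members, they are given as a description with no test. The reticulum, omasum and abomasum took no part in the choice, and the tests concern these 3 chambers.

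The series holds RNA sequencing counts of the epithelium of 4 stomach chambers of sheep (Ovis aries) at d5 and d10. Each of the 8 combinations of chamber and age has 3 libraries. All tissues were freed from the muscle layer after slaughter, and the rumen tissue came from the ventral sac. By the study's methods, the d5 rumen came from healthy male Hu lambs raised with their mothers on ewe's milk. Starter pellets were offered in that experiment from d10. The sources used here do not give the breed, sex and feeding of the d10 lambs, and the labels do not say which libraries came from 1 lamb. The p-values thus measure the spread between these libraries.

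The rumen, reticulum and omasum form the forestomach of ruminants and are lined by a stratified squamous epithelium, whereas the abomasum is a glandular stomach that secretes acid and enzymes. In a lamb fed on milk, the suckled milk largely bypasses the forestomach, and the rumen wall is still immature. Its papillae and its capacity to absorb and use short-chain fatty acids develop as microbes settle and solid feed is eaten. In bulk tissue such as this, more cells of a type and more RNA per cell cannot be told apart.

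Genes are known only by their Ensembl identifier, and none of these could be paired with a gene symbol, so that the members are given by identifier and their roles are not stated. The identity of the tissues could not be checked on known markers for the same reason. As a check from the data, 27 genes were taken that reached 100 CPM in all abomasum libraries and had at most 1% of their lowest abomasum value in every rumen library. None of the members was in this set. Relative to the abomasum mean, the summed level of the set was 0.00573% to 0.0167% in the rumen at d10. It was 94.1% in omasum d5 library 2 and 7.37% in omasum d5 library 1, against 0.0668% in the third omasum library of that age. Abomasum d5 library 2 held 62.4%, and the other abomasum libraries 87.1% or more. The omasum count of members with every d10 library above every d5 library is therefore given with and without omasum d5 libraries 1 and 2. So are the edgeR test of age in the omasum and the interactions with the omasum. Other values that use the omasum at d5 include both libraries. The total counts ran from 13041697 to 19650121, so that 1 CPM stands for 13 to 19.7 counts.

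In the rumen at d10 the members were low but measurable. Their mean CPM ran from 2.20 to 11.9, with a median of 4.16 and quartiles of 3.02 and 5.58. There were 46 members under 5 CPM, 21 between 5 and 10 CPM, and 2 above 10 CPM. At d5 their mean CPM ran from 0 to 0.900 with a median of 0.326. The counts behind a member at d5, summed over the 3 libraries, ran from 0 to 39 with a median of 14, so that few members were without any read at that age. For 17 members at least 1 d5 library had no count, and a count of 0 allows a level of up to 0.195, 0.230 and 0.2 CPM in libraries 1, 2 and 3 (3 counts, counting error only). The ratio of the d10 to the d5 mean, where a d5 read was counted, ran from 3.18 to 201 with a median of 12.2, and 44 members were at 10-fold or more.

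The 3 lambs of d10 had similar levels for most members. The ratio of the highest to the lowest d10 library had a median of 1.40, was under 1.5 for 42 members and under 2 for 59, and exceeded 3 for 3 members. The coefficient of variation over the d10 lambs had a median of 17.7%, against 14.1% over all genes with a mean of at least 2 CPM in these libraries. The highest value of a member fell in library 1 for 22 members, in library 2 for 24 and in library 3 for 23. The rule required 2 CPM or more in every d10 library, so that genes carried by 1 lamb alone could not enter. These values are therefore no test of likeness between lambs. The summed CPM of the 69 members was 24.6, 22.8 and 27.5 in the d5 libraries and 344, 313 and 334 in the d10 libraries.

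**Figure D1:**
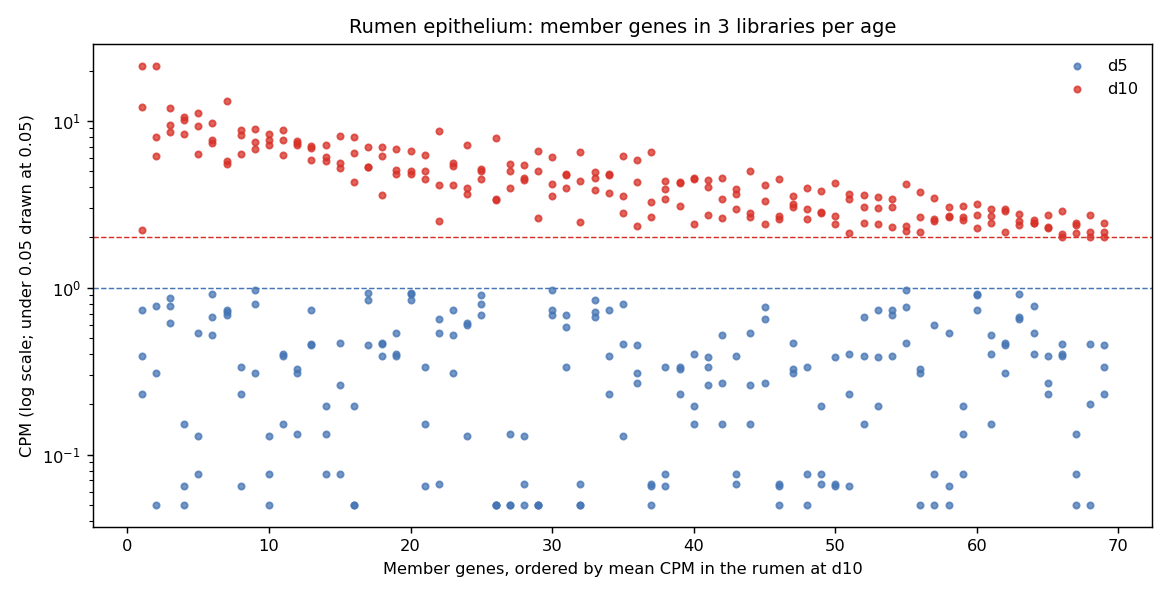
CPM of the 69 member genes in the rumen epithelium on a log scale, ordered by their d10 mean, with blue points for the 3 d5 libraries and red points for the 3 d10 libraries (values under 0.05 CPM are drawn at 0.05, and dashed lines mark 1 and 2 CPM). The gap between the ages follows from the rule, with every d5 point under 1 CPM and every d10 point at 2 CPM or more. The d10 means run from 2.20 to 11.9 CPM.

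The highest d10 mean belonged to a gene that varied most between lambs. ENSOARG00000017457 was at 0.390, 0.230 and 0.734 CPM in the d5 rumen and at 12.2, 2.22 and 21.3 CPM at d10. Its highest d10 library was 9.61 times its lowest, the widest ratio of the members, and library 2 was only just above the threshold. Outside the rumen its one value above 1 CPM was 6.79 CPM in reticulum d10 library 3, and it had no read in any abomasum library. ENSOARG00000004136 was the second highest, at 7.99, 6.12 and 21.3 CPM at d10 after 0.779, 0.307 and 0 CPM at d5. Its d10 ratio was 3.48, and library 3 was again the highest. The remaining member with a ratio above 3, ENSOARG00000012537 (3.44), was at 2.52, 4.12 and 8.66 CPM at d10.

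The other members of the 10 with the highest d10 mean were more alike between lambs. ENSOARG00000025564 went from 0.779, 0.613 and 0.868 CPM to 11.9, 8.56 and 9.43 CPM. ENSOARG00000013646 went from 0.0650, 0.153 and 0 CPM, 3 counts in all, to 10.1, 10.5 and 8.37 CPM. ENSOARG00000011437 went from 0.130, 0.0767 and 0.534 CPM to 9.35, 11.1 and 6.31 CPM. These 3 genes had d10 means of 9.95 ± 1.72, 9.65 ± 1.13 and 8.92 ± 2.43 CPM (SD, n = 3). ENSOARG00000001158 reached 7.70, 9.75 and 7.37 CPM and ENSOARG00000005642 reached 13.1, 5.74 and 5.54 CPM, the second with 1 lamb clearly above the other pair. ENSOARG00000008984 reached 8.85, 8.23 and 6.31 CPM, ENSOARG00000020249 reached 7.48, 6.82 and 8.90 CPM, and ENSOARG00000006301 reached 7.63, 8.29 and 7.13 CPM. In each of these 5 genes no d5 library was above 0.974 CPM. The most even members were ENSOARG00000011217, ENSOARG00000017006 and ENSOARG00000011239, with d10 ratios of 1.04, 1.06 and 1.15. ENSOARG00000017006 was at 7.41, 7.15 and 7.54 CPM at d10, a spread of 0.201 CPM (SD, n = 3).

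ENSOARG00000008862 and ENSOARG00000001917 had no read in any d5 rumen library. The former was at 3.38, 3.36 and 7.84 CPM at d10 and the latter at 5.04, 2.6 and 6.60 CPM. Against a floor of 3 counts per library these levels are at least 23.3-fold and at least 22.8-fold higher at d10. The largest ratio with a read at d5, 201-fold, was that of ENSOARG00000000857, which rests on 1 count at d5 (this gene was singled out after its values were seen).

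The thresholds cut through a continuous range of genes. The members nearest the d10 threshold were ENSOARG00000005888 with a lowest d10 library of 2.004 CPM, ENSOARG00000020657 with 2.004 CPM and ENSOARG00000010094 with 2.004 CPM. Just outside it were ENSOARG00000003822 with 1.95 CPM, ENSOARG00000017362 with 1.94 CPM and ENSOARG00000001645 with 1.89 CPM. The last had 0, 0.153 and 0 CPM at d5, a wider gap between the ages than many members. At the d5 threshold, ENSOARG00000026510, ENSOARG00000020249 and ENSOARG00000011944 were inside with a highest d5 library of 0.974 CPM each. Just outside were ENSOARG00000014841 and ENSOARG00000019463 with 1.001 CPM and ENSOARG00000006166 with 1.04 CPM. ENSOARG00000019463 was at 5.83, 7.37 and 6.60 CPM at d10, so that this gene, which is no member, resembles those inside.

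The scale also moves the edge of the set. With the library sizes rescaled by TMM (trimmed mean of M values, which allows for libraries in which a few genes take a large share of the reads), 54 genes met the same thresholds, of which 46 were members. The TMM factors were 1.07 to 1.12 in the rumen at d5 and 1.22 to 1.27 at d10, so that the d10 levels of the rumen are lower on that scale. The median of the members' means was then 0.297 CPM at d5 and 3.34 CPM at d10.

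The members' behaviour in the chambers that the rule did not use was examined next. Nearly all were also higher on average at d10 in the reticulum, the chamber that adjoins the rumen. The d10 mean exceeded the d5 mean for 68 of 69 reticulum, 50 omasum and 63 abomasum values, against 57.6%, 68.3% and 57.0% of all genes with a count there. The median of the members' means in the reticulum went from 0.427 to 1.84 CPM. It went from 0.821 to 1.13 CPM in the omasum, and the abomasum showed 0.927 and 2.88 CPM. Over all genes with a count the same medians were 6.72 and 7.76, 7.87 and 8.34, and 5.26 and 5.15 CPM. On the TMM scale the members' medians were 0.407 and 1.68 CPM (reticulum), 0.775 and 0.927 CPM (omasum) and 1.53 and 3.8 CPM (abomasum), with the same directions.

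In the reticulum every d10 library was above every d5 library for 51 members (73.9%), against 6.18% of all genes with a count there. None of the members had every d10 library below, against 4.28% of all genes. In the omasum 17 members (24.6%) had every d10 library above, against 12.1%, and 4 (5.80%) had every d10 library below, against 3.17%. In the abomasum the former count was 23 (33.3%), against 6.48%, and the latter was 0, against 1.82%. The members' shares were thus above the shares of all genes in all 3 chambers, and most so in the reticulum. On the TMM scale the counts were 45 in the reticulum, where 5.43% of all genes did so, and 10 in the omasum, where 7.47% did. Without omasum d5 libraries 1 and 2 the omasum count was 39, but the share of all genes then rose to 33.7%, and without library 1 alone the values were 28 and 20.8%. In the abomasum d10 library 2 was decisive, since the count was 46 without it, against 13% of all genes.

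**Figure D2:**
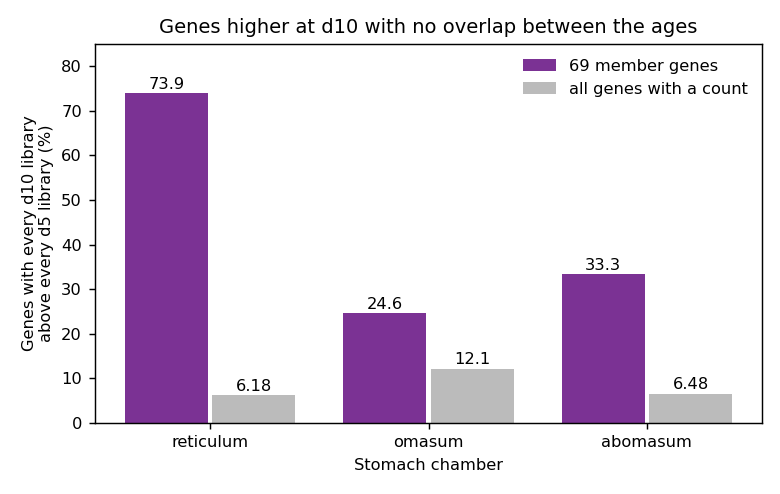
Share of genes (%) for which all 3 d10 libraries were above all 3 d5 libraries in the reticulum, omasum and abomasum, with 1 bar for the members and 1 for all genes with a count in that chamber. The members are at 73.9%, 24.6% and 33.3%, and all genes at 6.18%, 12.1% and 6.48%.

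The rule itself was met in another chamber by few members. In the reticulum 7 members (10.1%) were under 1 CPM at d5 and at 2 CPM or more at d10 in every library, against 20 genes of the whole table (0.0739%). They were ENSOARG00000025564, ENSOARG00000005642, ENSOARG00000008984, ENSOARG00000020249, ENSOARG00000006301, ENSOARG00000016062 and ENSOARG00000007603, and the first 5 were also among the 10 highest in the d10 rumen. In the omasum only ENSOARG00000001158 (1.45% of members) met it, against 0.0296% of all genes, and in the abomasum ENSOARG00000020789 and ENSOARG00000001917 (2.90%), against 0.0333%. The 2 sides of the rule were met unequally. All 3 d5 libraries were under 1 CPM for 48 members of the reticulum, 26 of the omasum and 23 of the abomasum. All 3 d10 libraries were at 2 CPM or more for 12, 2 and 18. In the reticulum many members were therefore as low at d5 as in the rumen but reached lower levels at d10, while in the abomasum fewer were low at d5.

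The libraries of a chamber differed in the members' levels. The summed CPM of the members in the reticulum was 53.6, 26.9 and 26 at d5 and 112, 115 and 225 at d10, without overlap. Library 3 of d10 held the highest value of the group for 54 of 69 members. In the omasum the sum was 69, 103 and 59.5 at d5 and 99.1, 82.6 and 108 at d10, and the ages overlapped. In the abomasum it was 76.6, 287 and 90.7 at d5 and 378, 247 and 273 at d10. A pair of genes, ENSOARG00000008189 and ENSOARG00000006517, made up much of the sum in the abomasum libraries numbered 2 and less in the others. Without them the abomasum was at 70.1, 96.0 and 74.7 at d5 and at 315, 116 and 251 at d10, with no overlap. Library 2 of the d10 abomasum held the highest value of its group for only 2 of 69 members, and its median over members was 1.33 CPM, against 4.05 and 2.67 CPM in libraries 1 and 3.

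**Figure D3:**
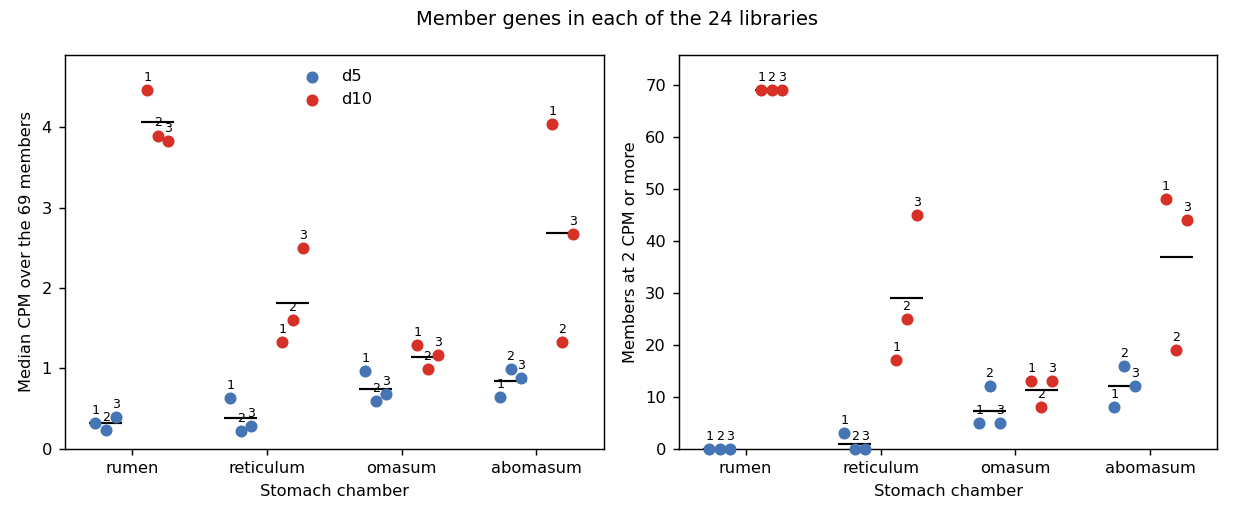
Left, the median CPM over the 69 members, and right, the number of members at 2 CPM or more, in each of the 24 libraries by chamber (blue d5, red d10; digits are library numbers and black lines the mean of 3 libraries). In the rumen the number goes from 0 to 69 by the rule. The d10 libraries held 17, 25 and 45 such members (reticulum), 13, 8 and 13 (omasum) and 48, 19 and 44 (abomasum).

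Differences between d5 and d10 were tested in each of these chambers with edgeR's quasi-likelihood test over all genes, with Benjamini-Hochberg adjustment. None of the members passed an adjusted p of 0.05 in any of these chambers (reticulum, omasum, abomasum), where 0%, 0% and 0% of all genes passed. At an unadjusted p under 0.05 in that test, 35 members (50.7% of 69) were higher at d10 in the reticulum, against 4.14% of all genes tested. In the omasum 5 members (7.25%) were higher by that measure, against 3.26%, and in the abomasum 17 (24.6%), against 3.48%. A fit of 16 libraries without omasum d5 libraries 1 and 2, which takes the spread of the lone d5 omasum library from the other groups, again had 5 members at that level in the omasum, against 2.30% of all genes, and a median log2 change of 0.74. The filter on low counts removed 16, 13 and 15 members from these tests, and a member could pass it through its d10 libraries alone. A stricter filter of at least 10 counts in every library, which leaves out members with few reads at d5, kept 3, 19 and 27 members. None of these passed the adjusted threshold. At an unadjusted p under 0.05 in that test, 3, 1 and 10 of them were higher at d10, and 2 were lower in the omasum. Their median log2 change was -0.53 in the omasum and 0.79 in the abomasum. With no filter, none of the members passed the adjusted threshold either, where 13 of 20641, 0 of 21006 and 10 of 19924 genes did. The median log2 change of the members was then 2.08 (reticulum), 0.36 (omasum) and 1.13 (abomasum), against 0.03, 0.00 and -0.03 over all genes. DESeq2 called 16, 2 and 7 members (same order), all higher at d10, of 163, 219 and 128 genes called among 17783, 16458 and 14728 tested. A single edgeR fit of the 18 libraries called 1 member in the reticulum (ENSOARG00000007458) and 1 in the abomasum (ENSOARG00000012537), where 6 and 45 of 15996 genes were called. The calls for age therefore depend on the tool and the fit, while the median change of the members in the reticulum and the abomasum was upward in each. In the omasum the sign of the median change depended on the filter.

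The genes with the smallest p in the reticulum had few or no reads there at d5. ENSOARG00000019197 was at 0.141, 0 and 0.0708 CPM at d5 and at 1.92, 1.55 and 1.36 CPM at d10, and its log2 change of 4.27 ± 0.79 (SE, n = 3 per age) had an adjusted p of 0.256 in edgeR. ENSOARG00000012537 had no read at d5 in this chamber and was at 1.04, 2.32 and 4.57 CPM at d10, with an adjusted p of 0.256. Its d10 libraries vary widely, and all are above d5. The highest members of the d10 reticulum were ENSOARG00000025564, ENSOARG00000005642 and ENSOARG00000009791. ENSOARG00000025564 was at 0.706, 0.656 and 0.920 CPM at d5 and at 4.22, 4.22 and 28.1 CPM at d10, so that library 3 exceeded the rumen levels of this gene. ENSOARG00000005642 was at 0.0706, 0.583 and 0.425 CPM and then at 5.03, 2.32 and 5.29 CPM. ENSOARG00000009791 was at 0.282, 1.24 and 0.283 CPM and then at 5.7, 4.88 and 2 CPM. In none of these 3 did the ages overlap.

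In the omasum the d10 mean was below the d5 mean for 19 of 69 members, against 1 in the reticulum and 5 in the abomasum. ENSOARG00000005888, the highest there at d10, was at 2.39, 1.34 and 2.74 CPM at d5 and at 7.86, 5.88 and 11.3 CPM at d10, without overlap. Its log2 change of 1.75 ± 0.33 (SE, n = 3 per age) had an adjusted p of 0.675 in edgeR, a value it shares with other members, and DESeq2 called it (adjusted p = 0.00143). The gene is thus well above its rumen level of 2.88, 2.11 and 2 CPM at d10. ENSOARG00000005642, the next highest, was at 2.23, 0.524 and 9.64 CPM at d10 and at 1.17, 0.372 and 0.498 CPM at d5, so that the ages overlapped. ENSOARG00000007603 was the third highest at d10. The 4 members with every d10 library below every d5 library were ENSOARG00000004983, ENSOARG00000006591, ENSOARG00000003991 and ENSOARG00000008189, and none passed the test in edgeR. Of these, ENSOARG00000008189 was at 1.93, 11.0 and 1.99 CPM at d5 and at 0.880, 1.16 and 0.957 CPM at d10. Its highest value lies in d5 library 2, which also carried the abomasal genes. The other d5 libraries, at 1.93 and 1.99 CPM, were also above every d10 library. The part of library 2 in the size of the change is not reported here.

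The abomasum held the highest levels of several members. ENSOARG00000017006 was at 0.853, 1.2 and 1.70 CPM at d5 and at 22.5, 5.37 and 9.99 CPM at d10, and ENSOARG00000012537 was at 0.284, 0.266 and 0.234 CPM and then at 6.70, 1.86 and 11.4 CPM. Their log2 changes were 3.11 ± 0.58 and 4.45 ± 0.74 (SE, n = 3 per age), with adjusted p of 0.233 and 0.205 in edgeR, and both were called by DESeq2. ENSOARG00000008862 was at 0.498, 0.2 and 2.99 CPM at d5 and at 21.0, 5.37 and 19.5 CPM at d10. These 3 genes had no overlap between the ages in the abomasum, and for all 3 d10 library 2 was the lowest. ENSOARG00000020789 went from 0.498, 0.2 and 0.878 CPM to 6.76, 4.58 and 17.9 CPM. ENSOARG00000001917 went from 0.356, 0.133 and 0.937 CPM to 5.37, 3.25 and 16.9 CPM. In the last pair library 3 was the highest, as it was in the d10 rumen.

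ENSOARG00000008189 stood apart from the other members by its level in the abomasum. It was at 5.55, 118 and 12.6 CPM at d5 and at 56.4, 129 and 19.8 CPM at d10, against 2.52, 2.38 and 2.77 CPM in the d10 rumen. The ages overlapped, and library 2 was the highest at both. ENSOARG00000006517 was at 0.925, 73.6 and 3.34 CPM in the abomasum at d5, and its other high value was 17.2 CPM in omasum d5 library 2, against 1.32 and 1.25 CPM in the other omasum libraries of that age. Abomasum and omasum d5 library 2 thus shared a high value of both genes, each beside the abomasal set at 62.4% and 94.1% of the abomasum mean.

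The number of the 3 further chambers in which every d10 library of a member was above every d5 library was 0 for 11 members, 1 for 29, 2 for 25 and 3 for 4. The 4 genes with all 3 were ENSOARG00000017006, ENSOARG00000016138, ENSOARG00000012537 and ENSOARG00000014277 (the second and the last are named after their values were seen). ENSOARG00000016138 was at 0.195, 0.0767 and 0.134 CPM in the d5 rumen and at 7.19, 6.07 and 5.78 CPM at d10. Its d10 values were 1.85, 1.67 and 2 CPM in the reticulum, 1.47, 1.63 and 1.44 CPM in omasal and 3.05, 1.39 and 2.86 CPM in abomasal libraries, each above all d5 values of that chamber. Counting each member once, the most frequent patterns were a higher d10 without overlap in the reticulum alone (24 members) and in reticulum and abomasum but not omasum (16 members). Reticulum and omasum without the abomasum made 7, and omasum and abomasum without the reticulum 2 (ENSOARG00000004136 and ENSOARG00000011437). The omasum alone made 4 (ENSOARG00000001158, ENSOARG00000005888, ENSOARG00000011944 and ENSOARG00000026510) and the abomasum alone 1 (ENSOARG00000001589). The shares of all genes with these patterns were not computed, so that the counts only describe the members. They include omasum d5 libraries 1 and 2. Without these libraries more members, and more of all genes, were higher at d10 without overlap in the omasum, so that the patterns would differ. The libraries of reticulum and omasum may come from the lambs of the rumen libraries that chose the members, which the labels do not state. Deviations of same-numbered rumen and reticulum libraries from their group means had r = 0.391, 0.365 and 0.154 at d10 and 0.307, 0.118 and 0.339 at d5. For rumen and omasum r was 0.348, 0.365 and 0.219 at d10 but 0.285, -0.00207 and 0.0456 at d5. How far shared lambs enter these counts was not tested.

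**Figure D4:**
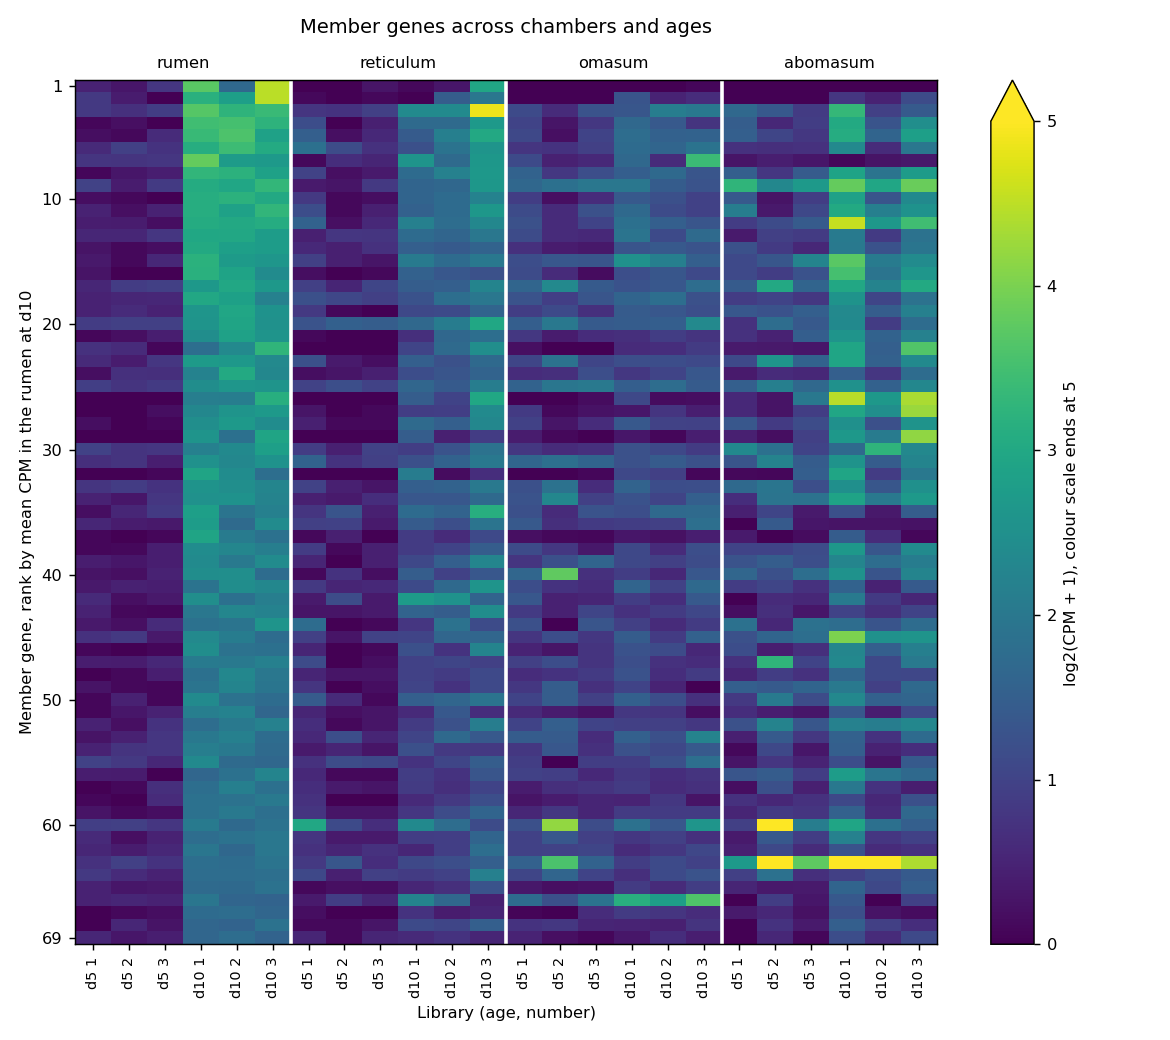
Expression of the 69 members (rows, ordered by their d10 rumen mean) in the 24 libraries (columns, by chamber and age), as log2(CPM + 1) on a colour scale that ends at 5. The d10 rumen columns are high by the rule, the third d10 reticulum column is the highest of its group for 54 members, and d10 abomasum column 2 is darker than columns 1 and 3, with a median of 1.33 CPM against 4.05 and 2.67.

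Whether the change with age differed between chambers was tested as an interaction in a fit of the 18 libraries of the 3 chambers, added after seeing the data. With edgeR's quasi-likelihood test none of the members passed the adjusted threshold for reticulum against omasum, for abomasum against omasum or for reticulum against abomasum, where 0%, 0% and 0% of all genes passed. At an unadjusted p under 0.05, 25 members (36.2%) had a larger log2 change in the reticulum than in the omasum, against 3.61% of all genes, with a median difference of 1.67 on the log2 scale against 0.02 over all genes, and a lowest adjusted p of 0.382. Without omasum d5 libraries 1 and 2 this count was 11, against 0.990% of all genes, and the median difference 1.56. For the abomasum against the omasum 8 members (11.6%) had a larger change at that level, against 6.15% of all genes, and 1 (ENSOARG00000005642) a smaller one. Without the same libraries 1 member had a larger change, against 2.62%, and the median difference was 0.48 in place of 0.80. For the reticulum against the abomasum 9 members (13%) had a larger one, against 4.07%. Leaving out single libraries gave from 2 members, without reticulum d10 library 3, to 22, without reticulum d5 library 1. Over all genes, 959 of 16324 and 542 of 16318 had a larger change in these fits. The median difference of the members was 0.56 and 1.52, in place of 0.86. No single member passed the adjusted threshold in any of the fits with libraries left out.

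The levels at d10 were then compared between the chambers that the rule did not use, in edgeR with TMM scaling. The abomasum held more of the members' transcripts than the omasum for most members. Of the 69 members, 42 (60.9%) were higher in the abomasum than in the omasum at an adjusted p under 0.05, against 21.4% of all genes tested, and 2 (2.90%) were lower, against 20.5%. Against the reticulum 19 members (27.5%) were higher in the abomasum, against 15.0% of all genes, and 2 (2.90%) were lower, against 13.6%. All 19 were also among the 42. On the CPM scale every abomasum library lay above those of the other chamber for 26 of the 42 and for 11 of the 19. These members were called on the same libraries, and the share over all genes was not computed. Against the reticulum the calls depended on single libraries, with 9, 10, 11 and 12 members called in all, in place of 21, without reticulum d10 library 2 or 1 or abomasum d10 library 3 or 1. Over all genes these fits called 3107, 3265, 3543 and 4015, in place of 4222. Between omasum and reticulum none of the members passed in edgeR, where 0% of all genes passed. At an unadjusted p under 0.05, 11 members (15.9%) were lower in the omasum, against 3.76% of all genes, and 1 (ENSOARG00000005888) was higher. The members lower in the omasum ranged from 4 without reticulum d10 library 3 to 18 without reticulum d10 library 1. Over all genes, 904 of 15478 and 1378 of 15494 passed at that level in either direction. Without reticulum d10 library 3 the members' median log2 difference was -0.25, in place of -0.81. DESeq2 called 1 member there, ENSOARG00000009791, lower in the omasum, of 208 genes called among 16386 tested.

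Among the members higher in the abomasum, ENSOARG00000008189 had the largest difference, a log2 fold change of 6.91 ± 0.78 (SE) over the omasum (adjusted p = 0.000183) and 6.24 ± 0.76 over the reticulum (adjusted p = 0.00034). ENSOARG00000001917 had only 0.235, 0.0582 and 0.342 CPM in the d10 omasum, and its difference to the abomasum was 6.04 ± 0.80. ENSOARG00000020789 was at 0.235, 0.699 and 0.342 CPM there, and its difference was 5.21 ± 0.66. ENSOARG00000008862, with 1.11, 0.116 and 0.137 CPM in the omasum, differed by 5.71 ± 0.84. These genes are low in the omasum and at 3 CPM or more in every abomasum library of d10. ENSOARG00000020249 was higher in the abomasum at 13.1, 6.76 and 13.5 CPM, against 2.93, 1.75 and 1.44 CPM in the omasum (3.17 ± 0.41) and 2.07, 2.20 and 5.29 CPM in the reticulum (2.35 ± 0.51, adjusted p = 0.00736). ENSOARG00000017006 differed by 3.37 ± 0.52 from the omasum and by 2.46 ± 0.51 from the reticulum. ENSOARG00000006591 (2.80 ± 0.38), ENSOARG00000002143 (3.01 ± 0.45), ENSOARG00000019448 (3.16 ± 0.48) and ENSOARG00000012367 (2.48 ± 0.38) completed the 10 with the smallest p against the omasum. Against the reticulum ENSOARG00000018487 (2.77 ± 0.55), ENSOARG00000019197 (2.5 ± 0.51) and ENSOARG00000010631 (2.04 ± 0.45) were also among the 10 with the smallest p. All of these passed an adjusted p of 0.05.

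A few members were lower in the abomasum than in a forestomach chamber. ENSOARG00000005642 was at 0.0663, 0.199 and 0.254 CPM in the d10 abomasum and at 5.03, 2.32 and 5.29 CPM in the reticulum, a log2 difference of -3.94 ± 0.69 (adjusted p = 0.00233). Its rumen level was 13.1, 5.74 and 5.54 CPM. ENSOARG00000019663 was at 0.199, 0.199 and 0.191 CPM in the abomasum, against 1.70, 1.31 and 2.79 CPM in the reticulum (-2.67 ± 0.62) and 0.880, 0.931 and 2.53 CPM in the omasum (-2.04 ± 0.60, adjusted p = 0.0231). ENSOARG00000005888 was lower in the abomasum than in the omasum by a log2 difference of -2.56 ± 0.80 (adjusted p = 0.0302). ENSOARG00000017457, the highest member in the rumen, had no read in the abomasum at either age, where 68 of the 69 members had a count.

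**Figure D5:**
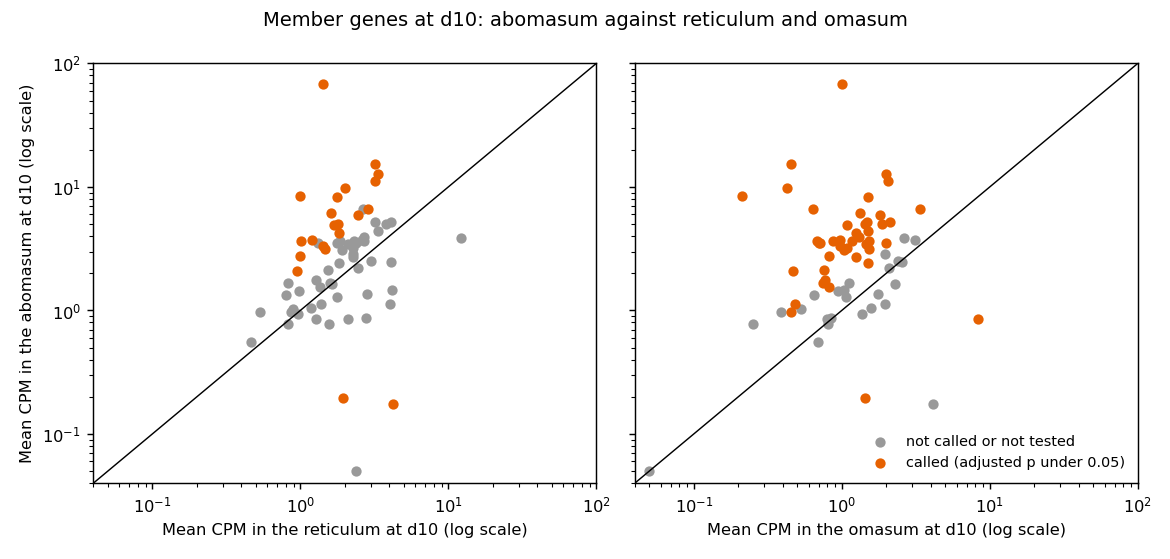
Mean CPM of each member at d10 in the abomasum (vertical, log scale) against the reticulum (left) and the omasum (right), with orange for members past an adjusted p of 0.05 in edgeR, grey for the others and a line of equality (means under 0.05 CPM are drawn at 0.05). Most orange points lie above the line, 19 against the reticulum and 42 against the omasum, and 2 lie below it in each panel.

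Whether the rumen or the abomasum held the highest level of a member at d10 depended on the scale. By CPM over the library total, the mean was highest in the rumen for 51 members, in the abomasum for 15, in the reticulum for 2 and in the omasum for 1. On the TMM scale the abomasum was highest for 35, the rumen for 30, the reticulum for 3 and the omasum for 1. The TMM factors were 0.657 to 0.793 in the abomasum and 1.22 to 1.27 in the rumen at d10, which sets the scales apart. On both scales the members' median was lower in the reticulum and omasum than in the rumen, with a median over members of 42.1% and 26.9% of the rumen mean by CPM. The members were chosen by their d10 rumen values, which favours the rumen in these rankings and shares. The top of the abomasum at d10 was formed by ENSOARG00000008189, ENSOARG00000008862 and ENSOARG00000017006.

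Genes outside the set with the pattern most like the members were found by the Pearson correlation of log2(CPM + 1) with the members' mean over the 24 libraries, which share their libraries and depth with the members. ENSOARG00000003604 had the highest r, 0.963. It was at 3.44, 2.38 and 5.14 CPM in the rumen at d5 and at 44.4, 42.5 and 30.4 CPM at d10, a larger level than any member and above the d5 limit of the rule. ENSOARG00000015718 (r = 0.954) was at 0.845, 0.690 and 2.07 CPM and then at 16.7, 17.2 and 18.1 CPM, and failed the rule through 1 d5 library. ENSOARG00000006135 (r = 0.952), ENSOARG00000007906 (r = 0.948) and ENSOARG00000005746 (r = 0.936) followed. ENSOARG00000007906 was at 5.00, 7.51 and 8.34 CPM at d5 and at 35.2, 33.8 and 45.3 CPM at d10. All 5 had every d10 rumen library above every d5 one, and each stayed outside the set through a d5 value above 1 CPM.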

How the data were processed

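RNA was measured in 24 libraries of stomach epithelium. The file the authors deposited holds unnormalized read counts of 27054 genes. CASAVA 1.8 and TopHat2 2.0.13 are named in the processing notes of the submitters. The sources used here do not give the counting program, the build, the annotation or the strand setting, so that overlapping or near-identical genes may share reads. None of the identifiers (0) matched the RefSeq sheep table, so that the lists of markers were not used here and no sequences are printed. The members and lists were chosen with earlier results of these data known. CPM was computed over the library total. Chambers and ages were tested with edgeR 4.0.16 (TMM, filterByExpr, quasi-likelihood, two-sided) in R 4.3.3 within 6 libraries, with Benjamini-Hochberg adjustment over all genes tested and a threshold of 0.05. DESeq2 1.42.0 was an alternative. The script was tested on simulated data. Totals of 13041697 to 19650121 limit precision, and floors of 3 counts cover counting error only. Named genes were the 10 highest members in the d10 rumen, the 10 lowest p per comparison among those called, the 3 highest at d10 per further chamber, the 3 on each side of each threshold, the 3 largest and 3 smallest d10 ratios and the 5 most alike non-members. Same-numbered libraries of omasum and abomasum at d10 deviated together (r = 0.175, 0.133 and 0.206). The reported fits did not pair libraries, and pairing entered only an alternative fit with a replicate block. The other comparisons tested had a pair under 0.1.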

Additional observations from a re-analysis of the deposited data

Results flagged for a closer look

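For ENSOARG00000006591 every d10 library was above every d5 library in the reticulum, at 0.814, 1.37 and 3.36 CPM after 0.565, 0.0729 and 0.212 CPM. In the omasum every d10 library was below, at 0.939, 0.931 and 0.752 CPM after 1.02, 1.86 and 0.997 CPM. The difference of the log2 changes was 3.40 ± 0.92 (SE), with an adjusted p of 0.516 in edgeR's test of the interaction over all genes. ENSOARG00000003991 had the same pattern, from 0.706, 0.291 and 0.283 CPM to 0.888, 0.892 and 2.07 CPM in the reticulum and from 0.967, 1.56 and 0.934 CPM to 0.762, 0.931 and 0.615 CPM in the omasum. Its difference was 2.31 ± 0.95 (SE), with an adjusted p of 0.930 in the same edgeR test. In both genes the omasum values at d5 were highest in library 2, which carried the abomasal genes at 94.1% of the abomasum mean. The other d5 libraries of the omasum were also above every d10 library. They were at 1.02 and 0.997 CPM against at most 0.939 CPM, and at 0.967 and 0.934 CPM against at most 0.931 CPM. The part of library 2 in the size of the differences is not reported here.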

How the results depend on the processing

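Of 163 recomputed counts of members, 144 stayed within 1.5 times the reported one. Most of these 144 were counts of 0 that stayed 0, for age, for omasum against reticulum and for the interactions. The share of 144 in 163 therefore says little about the reported counts above 0. Of 758 recomputed calls of single members, 643 stayed past the threshold, 115 did not, and 0 turned direction. For age, DESeq2 called 16 members in the reticulum, 2 in the omasum (ENSOARG00000004136 and ENSOARG00000005888) and 7 in the abomasum, and edgeR over 18 libraries called 1 in the reticulum (ENSOARG00000007458), 0 in the omasum and 1 in the abomasum (ENSOARG00000012537). For omasum against reticulum at d10, DESeq2 called 1 member, of 208 genes called in all. Leaving out each library in turn left 0 members called for age and for omasum against reticulum. It gave 9 to 24 for abomasum against reticulum (reported 21), with 9 and 10 without reticulum d10 libraries 2 and 1, 11 and 12 without abomasum d10 libraries 3 and 1 and 24 without reticulum d10 library 3, and 33 to 47 for abomasum against omasum (reported 44). The members called in every such fit were 9 and 31. Over all genes such fits called 3107 to 4107 and 4790 to 6664 (reported 4222 and 6286). With at least 10 counts in every library, 26 of 34 members tested were called for abomasum against omasum, against 4516 of 12294 genes.

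With the replicate block, in which same-numbered libraries were paired, 42 members were called for abomasum against omasum, where 6395 of 15029 genes tested were called. For abomasum against reticulum 21 members were called, where 3819 of 14727 genes were, and 0 members in the other comparisons. Of all genes, 6 of 14708 were called for age in the reticulum and 0 in the rest. For age the block pairs d5 with d10 libraries, which cannot come from 1 lamb because tissue was taken after slaughter. Its counts for age are therefore no check. Of 65 single calls, 4 were lost under the block.

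The number of members was 192 with a d10 minimum of 1 CPM, 33 with 3 CPM, 15 with 5 CPM and 36 with a d5 maximum of 0.5 CPM. The count with every d10 library above every d5 library was 10 in the omasum on the TMM scale and 39 without its d5 libraries 1 and 2. Leaving out each library, a change chosen after seeing the data, can only keep or raise this count. It gave 52 to 60 in the reticulum (8.66% to 19.1% of all genes), 18 to 28 in the omasum (15.2% to 20.8%; 28 without d5 library 1) and 23 to 46 in the abomasum (7.65% to 21.0%; 46 without d10 library 2, beside 13% of all genes). Without omasum d5 libraries 1 and 2, the members at an unadjusted p under 0.05 for the interaction went from 25 to 11 (reticulum against omasum) and from 8 to 1 (abomasum against omasum). Depth limits the d5 values, which rest on 0 to 39 counts per member.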

Other observations

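Another member had a high value in omasum d5 library 2, the library that carried the abomasal set at 94.1% of the abomasum mean. ENSOARG00000001161 was at 12.8 CPM there (this gene was singled out after its values were seen). The summed level of the members in that library was 103 CPM, and 74.6 CPM without ENSOARG00000008189 and ENSOARG00000006517, against 65.7 and 56.3 CPM in the other omasum libraries of d5.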
